A study of Homo sapiens with 8 samples.

Results

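The genes described here are 10 components of the Hippo pathway: the coactivator genes YAP1 and WWTR1, the transcription factor genes TEAD1, TEAD2, TEAD3 and TEAD4, the kinase genes LATS1 and LATS2, the angiomotin gene AMOTL2 and the target gene ANKRD1. They were chosen by name, with earlier results of these data known. Each symbol matched 1 of the 58870 genes in the deposited count table. All 10 passed the filter on low counts and belonged to the 14785 genes tested. The study measured gene expression by RNA sequencing in CFPAC-1, a human cell line established from pancreatic ductal adenocarcinoma, grown in serum-containing medium for 72 hours without treatment. One group of 4 samples carried an empty vector and the other group of 4 an ADRA2A transgene, which encodes the alpha-2A adrenergic receptor, a receptor for adrenaline and noradrenaline that couples mainly to Gi proteins. The sources used here do not give the promoter that drives the transgene, whether the cells were 1 clone or a pool, or whether the samples within a group were separate cultures, so the p-values measure the spread between these samples only.

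In the Hippo pathway the kinases STK3 and STK4, with the adaptor SAV1, activate LATS1 and LATS2. The LATS kinases phosphorylate the coactivators YAP and TAZ (the product of WWTR1), which are then held in the cytoplasm by 14-3-3 proteins or degraded. When the kinases are inactive, YAP and TAZ enter the nucleus and bind TEAD factors, which carry the DNA-binding domain that the coactivators lack, and genes such as ANKRD1, CCN1 and CCN2 are transcribed. Angiomotins bind YAP and TAZ at cell junctions, and AMOTL2 and LATS2 are themselves YAP/TEAD target genes with a feedback role. Because the pathway acts largely through phosphorylation and protein location, mRNA levels do not measure its activity.

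ANKRD1 fell and AMOTL2 rose in the ADRA2A cells, although both are known YAP/TEAD targets. The coactivator gene WWTR1 fell, TEAD3 rose slightly, and YAP1, both LATS genes and the other TEAD genes did not pass the test. With edgeR's quasi-likelihood test, 4 of the 10 members passed at a threshold of 0.05 after Benjamini-Hochberg adjustment over the whole table, 2 higher and 2 lower. This share of 40.0% compares with 42.7% of all genes tested, of which 21.6% were higher and 21.1% lower, so the members were called about as often as any gene. The median log2 fold change of the 10 members was -0.03, beside 0.00 for all genes tested. In 5 members the ranges of the groups were separate, against 39.2% of all genes tested.

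Library totals lay between 14427040 and 17528910 counts. ADRA2A itself had 0 counts in each empty-vector library and between 112 and 172 in the ADRA2A libraries. Keratin and adhesion genes of ductal epithelium were abundant, with KRT8 between 4754 and 5259 CPM, counts scaled to the library total, and EPCAM between 466 and 519 CPM, whereas CFTR lay between 0.253 and 1.16 CPM. Among markers of ductal epithelium MUC1, KRT19 and EPCAM were called higher and KRT7, CDH1, SOX9 and KRT18 lower in the ADRA2A cells, with ratios of group means from 0.740 for KRT7 to 1.73 for MUC1. Of 8 fibroblast markers 7 stayed under 1 CPM in all libraries, and their summed level was 2.04 to 2.55 CPM in the empty-vector and 1.18 to 1.72 CPM in the ADRA2A libraries. Of 7 immune markers CD3E and TYROBP were at 0 in all 8 libraries and PTPRC did not exceed 0.271 CPM, and the summed level of 121 to 133 CPM in the empty-vector and 199 to 212 CPM in the ADRA2A libraries came almost wholly from CD68 and LYZ, which epithelial cells also express. The 5 endothelial markers summed to 2.05 to 2.71 CPM and 2.64 to 3.35 CPM, with TEK at 0. These sums join opposite changes at low levels. PECAM1 was called higher, with means of 0.773 and 2.44 CPM (edgeR adjusted p = 8.12e-05). KDR was lower, with 1.23 and 0.482 CPM, but passed the filter on low counts only through the empty-vector libraries. The part of these markers in the results on the members was not tested.

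TEAD factors bind DNA elements built on the letters GGAATG. The RefSeq promoter windows (GRCh38.p14, 250 bases before to 50 after the start site) were searched for these letters on both strands. Entries were found for 8 of the 10 members, all but TEAD1 and TEAD4, with 12 windows between them because some genes have 2. A match was in 1 window each of 4 genes: YAP1, LATS2, AMOTL2 and ANKRD1. Among 34796 promoter windows of this length, 14.04% held at least 1 match and 1.38% at least 2. These shares are per window and not per gene. These windows are shown because they belong to target genes that fell (ANKRD1, CCN2), rose (AMOTL2) or did not pass the test (LATS2). All are read on the minus strand, at chr10:90921038-90921337 (ANKRD1), chr6:131951323-131951622 (CCN2), chr3:134374398-134374697 (AMOTL2) and chr13:21061537-21061836 (LATS2), and capitals mark the match.
ANKRD1: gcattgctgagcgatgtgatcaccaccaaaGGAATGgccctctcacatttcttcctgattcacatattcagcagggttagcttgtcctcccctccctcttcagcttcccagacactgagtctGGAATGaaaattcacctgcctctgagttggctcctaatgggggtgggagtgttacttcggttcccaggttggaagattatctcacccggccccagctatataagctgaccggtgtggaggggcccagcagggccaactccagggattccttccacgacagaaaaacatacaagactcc
CCN2: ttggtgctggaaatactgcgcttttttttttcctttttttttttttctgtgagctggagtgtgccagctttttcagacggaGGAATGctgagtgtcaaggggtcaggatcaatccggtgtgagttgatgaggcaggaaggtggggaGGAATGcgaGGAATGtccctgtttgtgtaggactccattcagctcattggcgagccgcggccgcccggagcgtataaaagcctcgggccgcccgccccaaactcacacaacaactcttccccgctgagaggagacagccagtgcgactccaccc
AMOTL2: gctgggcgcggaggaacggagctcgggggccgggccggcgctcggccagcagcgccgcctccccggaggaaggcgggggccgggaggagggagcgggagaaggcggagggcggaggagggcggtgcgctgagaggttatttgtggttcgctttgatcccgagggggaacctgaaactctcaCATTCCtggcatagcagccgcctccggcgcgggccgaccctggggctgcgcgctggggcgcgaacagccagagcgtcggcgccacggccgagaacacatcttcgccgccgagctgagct
LATS2: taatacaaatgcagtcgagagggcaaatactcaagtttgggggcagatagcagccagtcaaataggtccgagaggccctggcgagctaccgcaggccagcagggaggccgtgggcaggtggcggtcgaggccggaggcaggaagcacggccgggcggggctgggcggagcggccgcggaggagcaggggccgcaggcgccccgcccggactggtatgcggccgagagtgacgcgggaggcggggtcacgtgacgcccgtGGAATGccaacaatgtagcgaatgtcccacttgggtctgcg
The ANKRD1 window held 2 matches, which begin 220 and 128 bases before the start site, and CCN2 held 3, which begin 169, 104 and 95 bases before it. AMOTL2 had 1 match on the opposite strand, 69 bases before the downstream of its 2 listed start sites, and its other window had none. In LATS2 the match lay from base 10 to base 15 after the start site. The pattern TGANTCA, in which N is any base and which reads alike on both strands, was in 7.73% of windows. It is looser than the usual AP-1 element, which has C or G in place of N. ANKRD1 held 1 match, TGATTCA, beginning 195 bases before the start and overlapping neither TEAD match. Its centre base is T, so it is not the usual AP-1 element. AMOTL2, LATS2 and CCN2 held no match to the pattern. A match describes the sequence only and does not show that a factor bound there.

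ANKRD1 encodes an ankyrin repeat protein of the nucleus and the muscle sarcomere and is one of the most widely used readouts of YAP/TEAD transcription. The gene (ENSG00000148677.6) is at 90912096 to 90921087 of chromosome 10 (GRCh38, minus strand). Its TMM-scaled abundance was 755, 806, 768 and 753 CPM in empty-vector replicates 1 to 4 and 456, 460, 460 and 421 CPM in ADRA2A replicates 1 to 4. All 4 ADRA2A libraries lay far below all empty-vector libraries. The group means were 771 ± 24.3 and 449 ± 18.8 CPM (SD, n = 4 each), giving a log2 fold change of -0.78 (SE 0.04, adjusted p = 9.71e-13 by edgeR). That is a level of 0.583 times the empty-vector mean, and fewer expressing cells cannot be told apart from less RNA per cell in bulk samples. Only 51 of the genes tested had a smaller p-value. Across the fits that each left out 1 library, its log2 fold change lay between -0.79 and -0.75.

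By the likeness of their profile over the 8 libraries, the genes closest to ANKRD1 were COL4A1, ANXA3 and LIMD2. Likeness was the root mean square difference of log2 CPM after each gene was centred on its own mean, and it was 0.03, 0.04 and 0.04 for these genes. The measure includes the difference between the groups, so it picks genes with a log2 fold change near that of ANKRD1. Their falls below therefore follow from the choice (log2 fold changes -0.78, -0.72 and -0.77). COL4A1, a collagen chain gene of basement membranes, went from 237 ± 6.28 to 138 ± 6.88 CPM (SD, n = 4 each). ANXA3 encodes an annexin and went from 296 ± 5.58 to 180 ± 6.53 CPM. LIMD2 encodes a LIM domain protein and had 25.8 ± 0.293 and 15.1 ± 0.819 CPM in the same order.

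**Figure D1:**
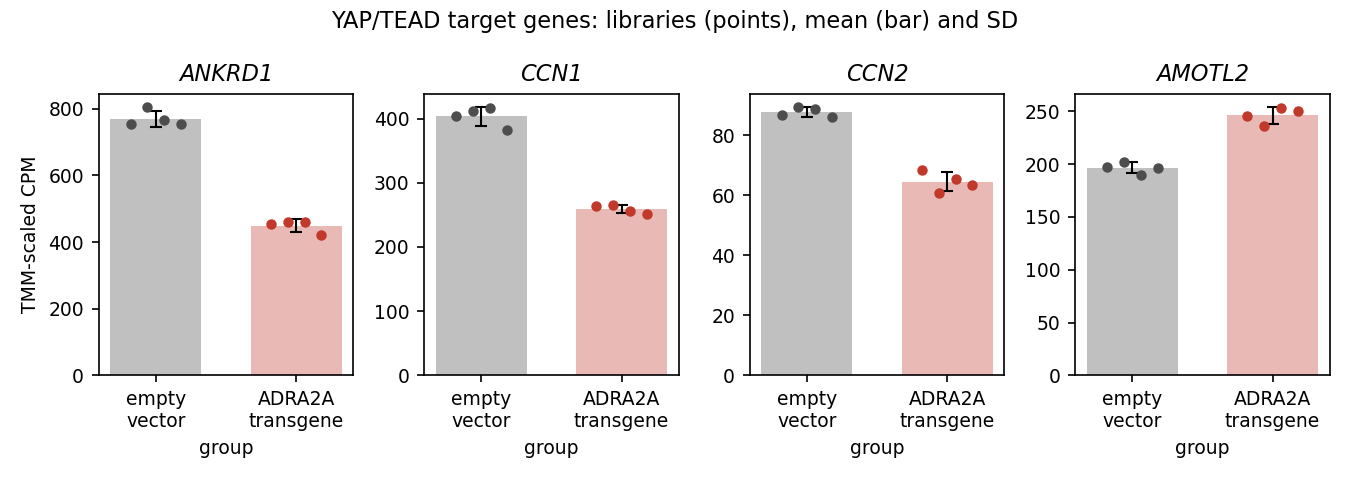
TMM-scaled CPM of 4 YAP/TEAD target genes by group. Points are libraries, bars are group means starting at 0 and whiskers are SD (n = 4). ANKRD1, CCN1 and CCN2 are lower in every ADRA2A library than in every empty-vector library, and AMOTL2 is higher in every one.

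CCN1 and CCN2, which encode secreted matricellular proteins and are the other standard YAP/TEAD readouts, fell as well. CCN1 had between 383 and 416 CPM in the empty-vector libraries and between 252 and 265 CPM in the ADRA2A libraries. The fitted log2 fold change was -0.64 (SE 0.03, adjusted p = 1.70e-11 by edgeR). CCN2 had between 86.1 and 89.5 CPM in the first group and between 60.8 and 68.4 CPM in the second. The log2 fold change of CCN2 was -0.45 (SE 0.04, adjusted p = 1.15e-07 by edgeR). In neither gene did the groups overlap.

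AMOTL2 encodes angiomotin-like protein 2, a scaffold of junctions and actin that binds YAP. The gene (ENSG00000114019.14) lies on the long arm of chromosome 3, from 134355347 to 134375479 on the minus strand. It had 197, 202, 190 and 196 CPM in the empty-vector replicates and 245, 236, 253 and 251 CPM in the ADRA2A replicates. Every ADRA2A library was above every empty-vector library. The means were 196 ± 5.26 and 246 ± 7.85 CPM (SD, n = 4 each), and the log2 fold change was 0.33 (SE 0.04, adjusted p = 3.95e-07 by edgeR).

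The other angiomotin genes were not called higher. AMOT went from 30.2 to 26.7 CPM (log2 fold change -0.18, SE 0.07, edgeR adjusted p = 0.0463), and AMOTL1 had 52.7 and 51.9 CPM (log2 fold change -0.02, SE 0.05, edgeR adjusted p = 0.749). The call of AMOT was lost with DESeq2 (adjusted p = 0.0700), with limma voom (adjusted p = 0.0589) and when any library but empty-vector replicate 3 or ADRA2A replicate 4 was left out (0.0658 to 0.145). On a scale of CPM per kilobase of annotated exon, AMOTL2 held 77.5% ± 0.52 (SD, n = 4) of the summed level of the 3 angiomotin genes in the empty-vector cells and 82.1% ± 0.67 (SD, n = 4) in the ADRA2A cells. The 2 ranges, 77.1% to 78.2% and 81.4% to 83.0%, did not overlap.

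AMOTL2 lay in a stretch of chromosome 3 whose genes were mostly higher in the ADRA2A cells. Of the 49 other tested genes that start within 5 Mb of it, 46 had a positive log2 fold change, 29 were called higher and 1 lower, and their median was 0.28. AMOTL2 exceeded this median by 0.05, and 19 of the 49 neighbours had a log2 fold change at or above its own. The excess depended on the window: it was 0.16 over the 15 neighbours within 2 Mb (median 0.17) and 0.11 over the 104 within 10 Mb (median 0.21). What part the stretch had in the rise of AMOTL2 was not tested.

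WWTR1 lies on the same chromosome arm, 15.2 Mb from AMOTL2, and went the other way. It encodes TAZ, the paralog of YAP that uses the same TEAD partners, and extends from 149517235 to 149736714 on the minus strand (ENSG00000018408.14). WWTR1 had 580, 599, 601 and 616 CPM in the empty-vector replicates and 506, 517, 507 and 494 CPM in the ADRA2A replicates. The lowest empty-vector library stood well above the highest ADRA2A library. With means of 599 ± 14.6 and 506 ± 9.43 CPM (SD, n = 4 each), WWTR1 fell by 0.24 on the log2 scale (SE 0.03, adjusted p = 2.40e-06 by edgeR), to 0.844 times the empty-vector level.

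The stretch around WWTR1 was shifted upward. Of its 35 tested neighbours within 5 Mb, 30 had a positive log2 fold change, with a median of 0.25, and 34 of the 35 lay at or above the value of WWTR1. Between the starts of AMOTL2 and WWTR1, 48 of 56 tested genes were positive, with a median of 0.29. WWTR1 stood 0.50 below its neighbours' median, and what part the stretch had in its value was not tested. Around the other 8 members the median of the neighbours lay between -0.09 and 0.05. Other pathway genes named here, and those nearest to ANKRD1 in profile, also lay in shifted stretches. A neighbour median beyond 0.1 had the same sign as the gene's change for ANXA3 (-0.20), AMOT (-0.13), ASAP1 (-0.11) and PPP2CA (0.101). It had the opposite sign for TNIK (0.19), RASSF6 (-0.18), SIKE1 (0.14), SFN (0.12) and CCN1 (0.11). What part these stretches had was not tested.

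**Figure D2:**
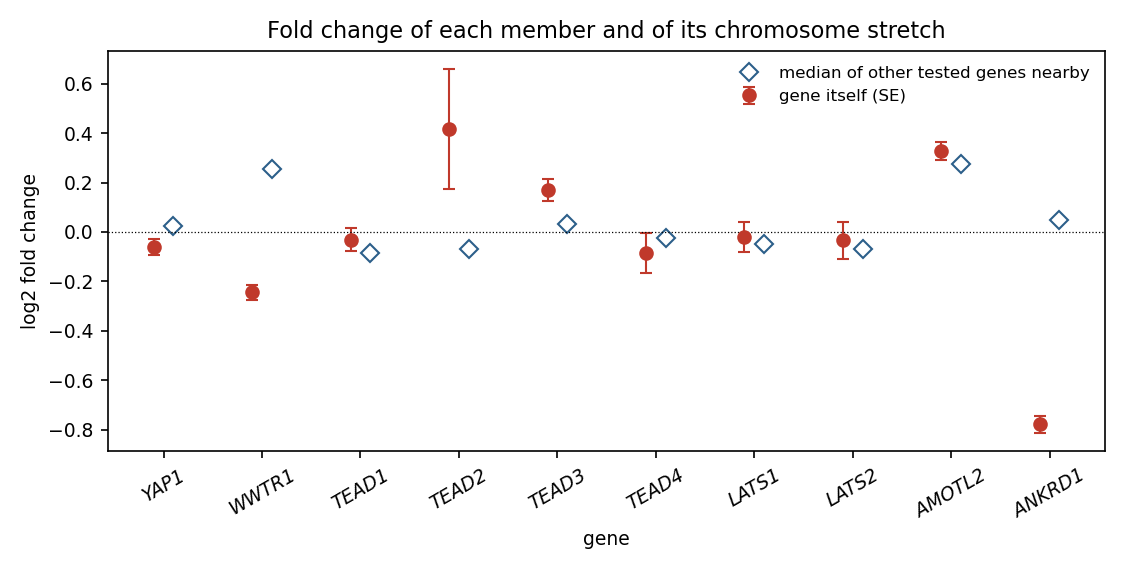
Fitted log2 fold change (ADRA2A against empty vector) of each member, with its SE, beside the median of the other tested genes that start within 5 Mb of it. AMOTL2 sits 0.05 above its neighbours' median of 0.28 in this window (0.16 above it at 2 Mb and 0.11 at 10 Mb), and WWTR1 and ANKRD1 sit far below theirs.

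YAP1 did not pass the test. The gene (ENSG00000137693.14; chromosome 11, 102110447 to 102233424, plus strand) encodes YAP. Its libraries held 261, 257, 262 and 269 CPM in the empty-vector replicates and 253, 253, 244 and 255 CPM in the ADRA2A replicates. The groups did not overlap, but the difference was small. The log2 fold change was -0.06 (SE 0.03, adjusted p = 0.141 by edgeR), with a 95% interval of the fold from 0.914 to 1.00. Over all other settings the adjusted p of YAP1 ranged from 0.0585 to 0.312.

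The make-up of the coactivator pair differed between the groups. Per kilobase, YAP1 supplied 36.7% ± 0.48 (SD, n = 4) of the summed YAP1 and WWTR1 level in the empty-vector cells and 39.7% ± 0.72 (SD, n = 4) in the ADRA2A cells. The ranges were 36.2% to 37.3% and 38.9% to 40.6% and did not overlap. The sum itself went from 113 ± 2.29 to 100.4 ± 1.20 CPM per kilobase (SD, n = 4 each), and WWTR1 was the more abundant gene of the pair in all libraries by this measure.

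**Figure D3:**
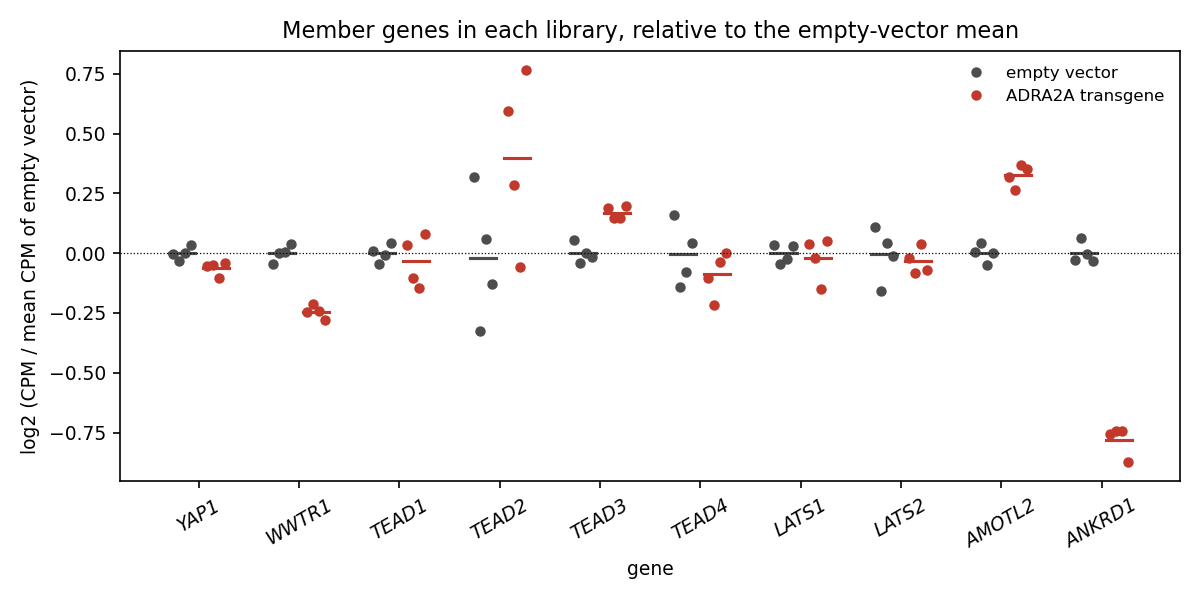
Each of the 10 member genes in each library, as log2 of its CPM over the mean CPM of the 4 empty-vector libraries. Points are libraries and short lines are group means. YAP1, WWTR1 and ANKRD1 lie below, and TEAD3 and AMOTL2 above, every empty-vector library, YAP1 only slightly; TEAD2 is scattered in both groups.

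Of the 4 TEAD genes TEAD3 passed the test and the other three did not. TEAD3 lies on chromosome 6 (ENSG00000007866.21; 35473597 to 35497079, minus strand). Its level was 58.9, 55.1, 56.6 and 56.0 CPM in the empty-vector replicates and 64.5, 62.7, 62.6 and 65.02 CPM in the ADRA2A replicates. All ADRA2A libraries were above all empty-vector libraries, by a modest step. The log2 fold change was 0.17 (SE 0.04, adjusted p = 0.00437 by edgeR), a ratio of 1.12. It is smaller than 0.31, the median absolute log2 fold change of all genes that passed the test.

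TEAD1 (chromosome 11, 12674421 to 12944737, plus strand) had 127, 122, 125 and 130 CPM without the transgene and 129, 117, 114 and 133 CPM with it. The ADRA2A libraries straddled the empty-vector ones, and the log2 fold change was -0.03 (SE 0.05, adjusted p = 0.628 by edgeR). TEAD4 (chromosome 12, 2959330 to 3040676, plus strand) had between 18.2 and 22.4 CPM in the empty-vector libraries and between 17.3 and 20.1 CPM in the ADRA2A libraries. With a log2 fold change of -0.09 (SE 0.08, adjusted p = 0.423 by edgeR), the interval of the fold ran from 0.838 to 1.06. These intervals do not show that the genes were equal in the 2 groups.

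TEAD2 (chromosome 19, 49340595 to 49362457, minus strand) was close to the limit of what this depth resolves. Its estimated counts were between 21 and 48 per library. They correspond to 2.23, 1.43, 1.86 and 1.64 CPM in the empty-vector replicates and 2.70, 2.18, 1.72 and 3.04 CPM in the ADRA2A replicates. The groups overlapped, and the log2 fold change of 0.42 (SE 0.24, adjusted p = 0.182 by edgeR) had a 95% interval from -0.09 to 0.93.

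Within a library, the 4 TEAD genes can be compared per kilobase of exon. TEAD3 held the largest share, 46.7% ± 0.89 (SD, n = 4) of the summed TEAD level in the empty-vector cells and 50.3% ± 1.19 (SD, n = 4) in the ADRA2A cells, without overlap between the groups. TEAD1 followed with 29.6% ± 0.83 and 27.7% ± 1.03, and TEAD4 with 22.1% ± 1.20 and 20.01% ± 1.00. TEAD2 made up 1.501% ± 0.23 and 1.93% ± 0.40. For these other three the ranges of the groups overlapped. The summed level of 39.8 ± 1.60 and 41.6 ± 1.76 CPM per kilobase (SD, n = 4 each) overlapped between the groups too.

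The LATS kinase genes were nearly level between the groups. LATS1 (chromosome 6, 149658153 to 149718105, minus strand) had 30.6, 28.9, 29.3 and 30.4 CPM in the empty-vector replicates and 30.6, 29.4, 26.9 and 30.9 CPM in the ADRA2A replicates. LATS2 (chromosome 13, 20973036 to 21061586, minus strand) had 21.7, 18.1, 20.7 and 19.96 CPM in the first group and 19.9, 19.0, 20.7 and 19.2 CPM in the second. The groups overlapped in both genes. Their log2 fold changes were -0.02 for LATS1 (SE 0.06, edgeR adjusted p = 0.811) and -0.03 for LATS2 (SE 0.07, edgeR adjusted p = 0.748). The 95% interval of the fold was 0.901 to 1.08 for LATS1 and 0.876 to 1.09 for LATS2. Of the YAP/TEAD targets among the members, LATS2 was thus the one that neither fell with ANKRD1 nor rose with AMOTL2 past the test. LATS2 supplied 50.5% ± 1.56 and 50.3% ± 2.38 of the summed LATS level per kilobase (SD, n = 4 each).

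Per kilobase of exon, the members spanned a wide range in the same cells. ANKRD1 stood first with 431 ± 13.6 CPM per kilobase in the empty-vector cells (SD, n = 4), 6.004 times the level of WWTR1, which came next with 71.7 ± 1.75. YAP1 (41.5 ± 0.78), AMOTL2 (30.3 ± 0.81), TEAD3 (18.6 ± 0.53), TEAD1 (11.8 ± 0.30) and TEAD4 (8.82 ± 0.83) followed in this order, each with all its libraries above those of the next gene. LATS2 (3.58 ± 0.28) and LATS1 (3.51 ± 0.10) overlapped, and TEAD2 was last with 0.599 ± 0.11. In the ADRA2A cells the order was the same, but ANKRD1 was 4.14 times WWTR1, and YAP1 (39.8 ± 0.77) and AMOTL2 (38.0 ± 1.21) overlapped.

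**Figure D4:**
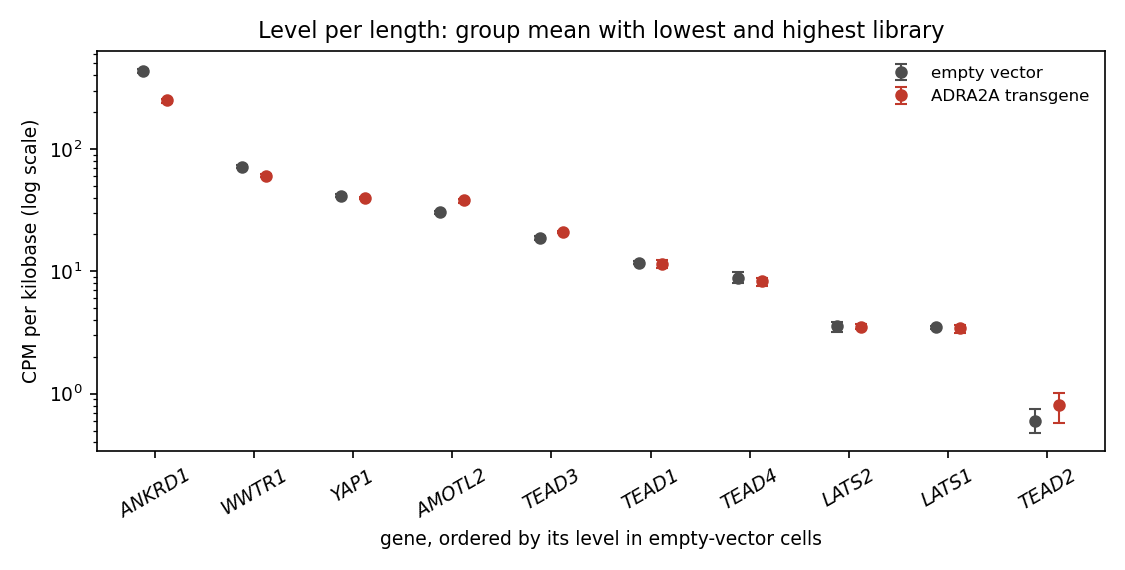
Level of each member in CPM per kilobase of annotated exon, on a log axis, for empty-vector and ADRA2A cells. Points are group means of 4 libraries and whiskers run from the lowest to the highest library. ANKRD1 is the highest and TEAD2 the lowest member in both groups.

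The rest of the pathway was described with 5 hand-written lists, which include members of the set above. They were written with earlier results of these data known, so their shares of called genes are descriptions and not independent comparisons. In the kinase cassette list, which holds the kinases with their adaptors and upstream activators, all 23 genes were tested, and 10 fell and 3 rose, 56.5% in all beside 42.7% of all genes tested. The median log2 fold change was -0.09. FRMD6, which encodes a FERM domain protein upstream of the kinases, fell from 86.9 ± 5.11 to 51.6 ± 4.28 CPM (SD, n = 4 each), giving a log2 fold change of -0.75 (SE 0.06, adjusted p = 2.32e-09 by edgeR). NF2, which encodes Merlin, an activator of LATS kinases at the membrane, fell from 166 ± 5.02 to 116 ± 1.45 CPM, and the kinase gene TNIK fell from 38.3 ± 0.95 to 24.0 ± 1.03 CPM. Log2 fold changes were -0.51 for NF2 and -0.67 for TNIK (edgeR adjusted p = 9.67e-10 and 1.25e-08). SAV1, the adaptor of STK3 and STK4, fell by 0.35 on the log2 scale, STK4 fell by 0.16 and STK3 rose by 0.18. Leaving out replicate 2 or 4 of the empty vector or replicate 2 or 3 of ADRA2A ended the call of STK4 (edgeR adjusted p = 0.0548 to 0.136). TNIK, like WWTR1, ran against its stretch of chromosome 3, where the 25 neighbours had a median of 0.19.

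Junction and polarity proteins pass signals from cell contacts to the pathway. Of 23 such genes 22 were tested, and 6 rose and 6 fell (54.5%, beside 42.7% of all genes tested). The median log2 fold change was -0.05. AJUBA, a LIM protein that inhibits LATS kinases, fell from 200 ± 2.39 to 137 ± 3.91 CPM (log2 fold change -0.55, SE 0.04, edgeR adjusted p = 2.19e-10). RASSF6, a Ras association domain gene that interacts with the STK3 and STK4 kinases, rose from 33.4 ± 1.95 to 47.1 ± 2.92 CPM (log2 fold change 0.49, SE 0.06, edgeR adjusted p = 1.26e-06), against neighbours with a median of -0.18. RASSF1, of the same gene family, fell from 17.6 ± 2.17 to 13.1 ± 0.76 CPM (log2 fold change -0.42). In the STRIPAK list, a phosphatase complex that counteracts STK3 and STK4, 14 of 15 genes were tested. Of these 2 fell (PPP2R1B by 0.26, SIKE1 by 0.17) and PPP2CA rose by 0.10 (log2). The share called was 21.4%, beside 42.7% of all genes tested. SIKE1 lost its call with DESeq2 (adjusted p = 0.0593), with no filter on low counts (edgeR adjusted p = 0.0602) and without replicate 1 or 4 of the empty vector or replicate 1, 2 or 4 of ADRA2A (edgeR adjusted p = 0.0501 to 0.0746), and PPP2CA without replicate 1 or 4 of the empty vector or replicate 2 of ADRA2A (0.0530 to 0.0633).

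The list of YAP and TEAD partners holds YAP1, WWTR1, the TEAD genes, the VGLL genes, whose products compete with YAP for TEAD, and the 14-3-3 genes. Of 17 genes 16 were tested, 8 fell and 2 rose (62.5%, beside 42.7% of all genes tested), with a median of -0.10. Leaving out the members, 7 of 10 fell and 1 rose. Of all genes tested 21.1% were called lower and 21.6% higher. VGLL3 fell to 0.492 times its level, from 24.5 ± 1.10 to 12.1 ± 2.15 CPM (log2 fold change -1.025, SE 0.10, edgeR adjusted p = 6.49e-08), and VGLL4 rose by 0.23 on the log2 scale. VGLL1 had few counts, with 1.95 ± 0.42 and 1.19 ± 0.38 CPM, and its call (edgeR adjusted p = 0.0488) was lost with DESeq2 (adjusted p = 0.0691), with no filter on low counts (edgeR adjusted p = 0.0615), with the replicate number as a block (0.0730) and without any library but replicate 2 of either group (edgeR adjusted p = 0.0606 to 0.157). Among the 14-3-3 genes YWHAH went from 201 ± 6.34 to 153 ± 2.21 CPM (log2 fold change -0.40, SE 0.04, edgeR adjusted p = 2.85e-08), and SFN, YWHAB, YWHAE and YWHAZ fell by 0.32, 0.25, 0.13 and 0.12 on the log2 scale. YWHAQ and YWHAG had -0.05 and -0.01 and did not pass.

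In the list of 22 YAP/TEAD target genes all were tested, but FOXF2, a forkhead factor gene, passed the filter on low counts only through the ADRA2A libraries (0.264 ± 0.28 and 1.14 ± 0.26 CPM, SD, n = 4 each) and is left out of the counts. Of the other 21 genes 9 fell and 5 rose, and their median was -0.17 on the log2 scale. The share that passed was 66.7%, beside 42.7% of all genes tested, in a list written with earlier results of these data known. Besides ANKRD1, CCN1 and CCN2, ASAP1, which encodes a regulator of ARF GTPases, fell from 93.3 ± 4.44 to 58.8 ± 2.64 CPM (log2 fold change -0.67, SE 0.05, edgeR adjusted p = 9.91e-10). The receptor tyrosine kinase gene AXL (-0.55), the tissue factor gene F3 (-0.52) and the ferlin gene MYOF (-0.28) had negative log2 fold changes past the test. The 5 that rose were IGFBP3 (0.62), ARHGEF17 (0.36), AMOTL2 (0.33), TGFB2 (0.20) and CRIM1 (0.13). Members of the target list therefore moved in both directions, and AMOTL2 was 1 of the 5 that opposed ANKRD1.

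**Figure D5:**
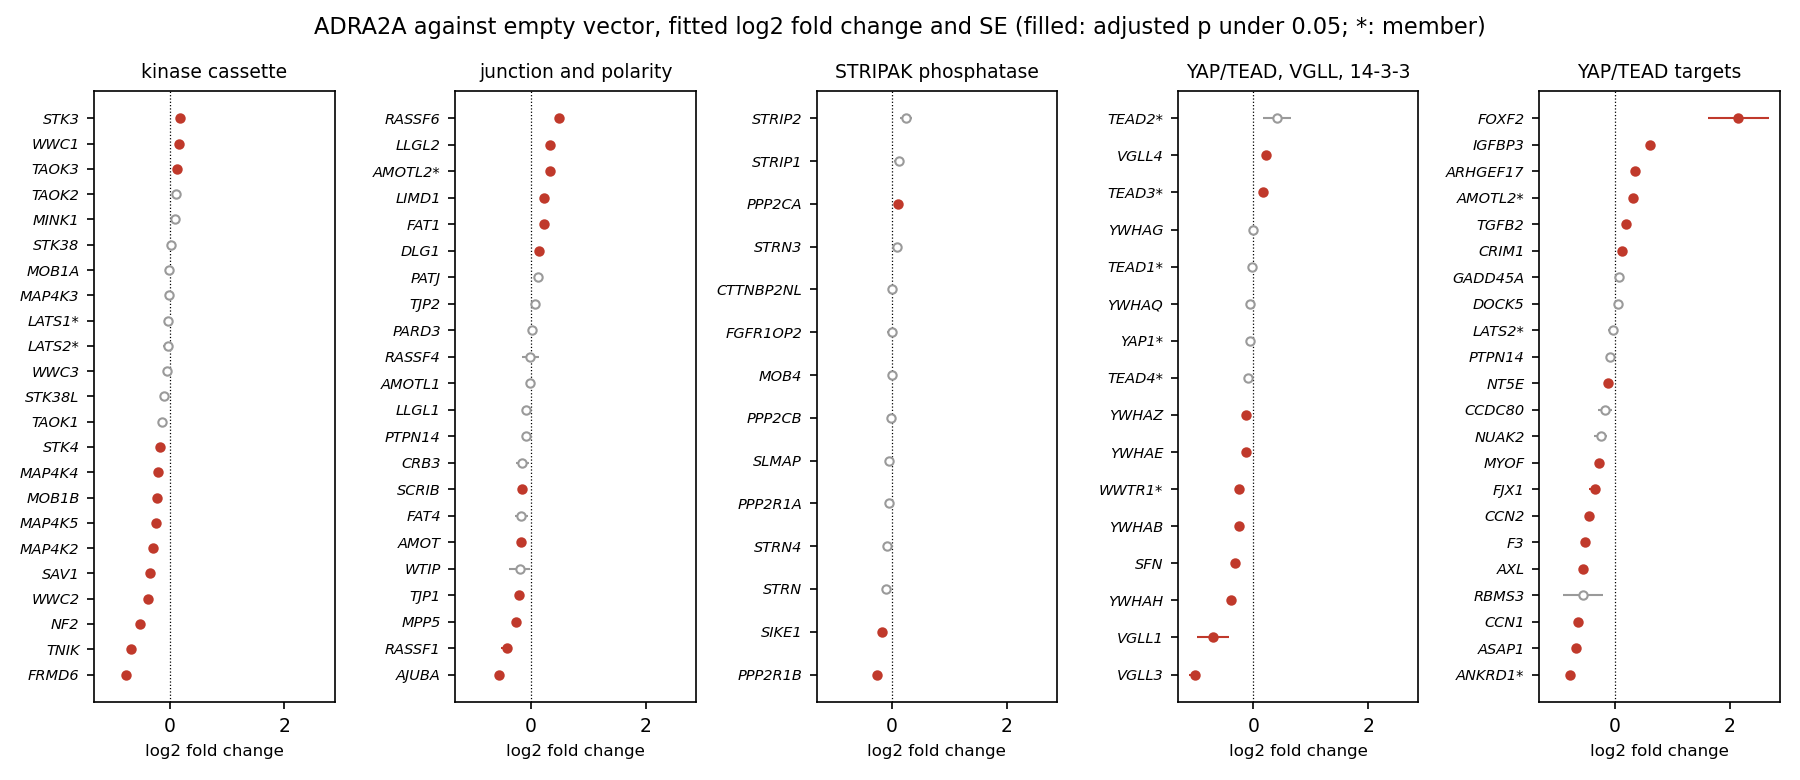
Fitted log2 fold change and SE of each tested gene in the 5 pathway lists, sorted within each list. Filled points passed the edgeR test at an adjusted p under 0.05, open points did not, and an asterisk marks a member. Apart from FOXF2, which passed the filter on low counts only through the ADRA2A libraries, the target list runs from ANKRD1 (-0.78) to IGFBP3 (0.62).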

How the data were processed

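The authors deposited 1 table of expected counts, named as gene-level RSEM output, for 4 empty-vector and 4 ADRA2A samples. Per the submitters' processing notes, cutadapt, STAR, RSEM and DESeq2 were used with build hg38; the annotation release and the use of strand are not given in the sources used here. No gene overlapping a member on either strand had more than 7 counts in a library, and only AMOTL2 had fractional counts, in 2 libraries.

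Counts were rounded, filtered with filterByExpr, scaled by TMM and tested with edgeR 4.0.16 (quasi-likelihood, all 8 libraries, group as the single term; Benjamini-Hochberg over all genes tested, threshold 0.05). The SE is the absolute log2 fold change over the square root of F. Gene positions and exon lengths are from GENCODE 44 (GRCh38), which matched 99.4% of identifiers. The code was tested on simulated data. Alternatives used DESeq2 1.42.0, limma 3.58.1, other scaling factors and filters, a replicate block, and leaving out each library.

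The members and lists were chosen with earlier results of these data known. Genes named were the members, CCN1, CCN2, ADRA2A, the 3 non-members with the largest absolute change past the test in each list (at least 1 CPM), and the 3 profiles nearest to ANKRD1; other genes were named after their values were seen.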

Additional observations from a re-analysis of the deposited data

Results flagged for a closer look

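ANKRD1 in the ADRA2A cells had 1 library apart from the other three: replicate 4 held 421 CPM, where the next lowest held 456 CPM. Without it the log2 fold change of ANKRD1 was -0.75, in place of -0.78. SIKE1, a gene of the STRIPAK list, had 28.5 CPM in ADRA2A replicate 3, above the next highest library at 26.0 CPM. AMOT had 26.4 CPM in empty-vector replicate 3, below the next lowest at 31.1 CPM, and YWHAG had 343 CPM in the same library, above the next highest at 331 CPM. Among 112 groups of 4 values examined in this way 4 stood out, and chance sets apart about 1 in 20.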

How the results depend on the processing

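The same 4 members (ANKRD1, AMOTL2, WWTR1 and TEAD3) passed the test, and no others, in all 15 alternative fits. TEAD2 was not tested under the filter at a mean of 50 counts. Values close to 0 changed sign without 1 library: over the fits that left out 1 library each, the log2 fold change ran from -0.0709 to 0.00603 for TEAD1 (positive without ADRA2A replicate 3), from -0.0454 to 0.0221 for LATS1 (positive without the same library) and from -0.0811 to 0.00469 for LATS2 (positive without empty-vector replicate 1); AMOTL1 ran from -0.0478 to 0.0095 and YWHAG from -0.0322 to 0.00314. For the STRIPAK list, 1 gene was lower with DESeq2 and 1 with no filter, and over the fits without 1 library between 1 and 3 were lower and between 0 and 2 higher. Counts of the other 4 lists stayed within 1.5 times, also in a count added after seeing the data that leaves out FOXF2 (5 target genes higher in place of 6). The count of genes called over all genes lay between 5703 and 6550 beside 6314; upper quartile factors put 46.4% of calls on the higher side instead of 50.6%. With the replicate number as a block 6400 genes and the same 4 members were called; same-numbered samples correlated by -0.04 to 0.07 in their deviations from the group means and only replicate 3 of the empty vector matched its own number best, so the numbers were not taken as pairs. Family shares without overlap between the groups numbered 3 of 7, and between 3 and 5 when 1 library was left out (5 without ADRA2A replicate 3). With a window of 2 Mb, 4 members had neighbours with a median beyond 0.1, in place of 2; over the fits without 1 library the count was between 2 and 3. With lengths of canonical transcripts LATS1 (4.05 CPM per kilobase) stood above LATS2 (3.63) in the empty-vector cells, AMOTL2 (50.6) above YAP1 (46.5) in the ADRA2A cells, and YAP1 held 29.0% and 31.7% of its pair. Of 583 comparisons of named non-members with an alternative, 31 lost a call, all in AMOT, STK4, VGLL1, SIKE1 or PPP2CA.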
